A study of Mus musculus with 8 samples.

Results

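Wild type mouse back skin was compared between 2 kinds of injury, 4 days after the hair had been plucked and 30 days after a full-thickness wound. The compared genes were those listed under a single symbol in both deposited tables with a level of at least 10 FPKM in wild type plucked skin or in wild type wounds. FPKM, fragments per kilobase of transcript scaled to the mapped reads of the library, is a level corrected for transcript length and depth. This rule kept 8740 of 45958 shared symbols. The lowest of the kept genes reached 10.002 FPKM in its higher column, and the highest of the genes left out reached 9.998 FPKM.

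The mice were of the C57BL/6 strain and carried JunB alleles that were intact in the wild type group (JunB +/+). Junb codes for a subunit of the AP-1 transcription factor. The same 2 tables also hold JunB cKO mice, in which Cre recombinase under the K14 promoter deletes floxed JunB in basal epidermal cells and their descendants, and which therefore keep JunB in the dermis, blood and muscle. For the plucked groups, the back hair of young adult mice was pulled out with an epilator and skin was taken on day 4. For the wounded groups, punch wounds were made through the whole thickness of the shaved back skin and the healed site was taken on day 30. The age of the wounded mice is not given in the sources used here. RNA of 3 samples was pooled for each library, so that the spread between mice is not visible.

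The wild type values come from 3 of the 8 libraries of the series, 1 for plucked skin and 2 for wounds, and the wound libraries share 1 column. There is thus 1 value per condition and genotype, no replicate error can be given, and no test was possible. The JunB cKO columns of the 2 tables share no library with the wild type columns, and are given beside them as a second reading of the same comparison in another genotype. The kind of injury, the day, the table, the sequencing depth and the mice all differ together between plucked skin and wounds and cannot be told apart. Because whole pieces of skin were measured, fewer cells of a type and less RNA per cell cannot be told apart either.

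Plucking is known to set resting hair follicles into a new growth phase, anagen. In its first days the follicle regrows downwards and the hair-forming cells divide, and the hard keratins of the shaft and the keratins of its inner root sheath are made only once the new bulb has formed. A full-thickness wound is known to close first by migrating epidermis and a collagen-rich scar, which is remodelled over weeks, while the muscle sheet under mouse skin, the panniculus carnosus, is cut along with the dermis. The hair around a shaved wound follows its own growth cycle.

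The labels describe the plucked samples both as skin biopsies and as keratinocytes. Dermal genes were abundant in them. Col1a1, a chain of type I collagen, was at 1168 FPKM in wild type plucked skin and 2506 FPKM in wild type wounds, against 2.66 FPKM in the unperturbed wild type keratinocytes of the series. Pecam1, of blood vessel lining, was at 29.5 FPKM in plucked skin and 0.0776 FPKM in those keratinocytes. The plucked columns therefore held dermis and vessels along with epidermis. Junb itself was at 40.8 FPKM in wild type plucked skin and 33.4 FPKM in wild type wounds, and in JunB cKO at 11.7 FPKM and 15.4 FPKM. Both cKO values lay below both wild type values.

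Genes of the hair shaft and inner root sheath list were among the members that stood furthest apart in wild type. Promoters of a few of its keratins are shown with those of Mcm6, Nusap1 and Cenpa, from the cell division list. Most genes of that list were within 2-fold, but these 3 were among its 4 genes higher in wild type plucked skin. The sequences are RefSeq promoters of GRCm38.p6, 250 bases before the start, written along the gene's strand, and capitals mark the letters CCAAT, the letters TTTGAA or else TTCGAA, and the letters TATAAA, on either strand. Krt25, Krt28 and Krt72 code for keratins of the inner root sheath, and lie on the minus strand at chr11:99322952-99323201, chr11:99374904-99375153 and chr15:101786521-101786770. They were taken by level in wild type plucked skin among the hair shaft genes named for the size of their difference from wounds. Other genes of the list with higher levels were thus not considered. Krt86 and Krt83 come before Krt28 and Krt72 in that order, and had no entry in the promoter table. Krt28, Krt72 and Krt33a were tied at 0 FPKM in wild type plucked skin, and Krt33a had no promoter entry either.
Krt25: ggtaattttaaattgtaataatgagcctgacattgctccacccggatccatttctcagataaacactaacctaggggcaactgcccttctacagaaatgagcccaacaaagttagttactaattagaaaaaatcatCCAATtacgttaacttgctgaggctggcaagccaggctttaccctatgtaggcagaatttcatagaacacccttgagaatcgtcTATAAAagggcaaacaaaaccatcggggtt
Krt28: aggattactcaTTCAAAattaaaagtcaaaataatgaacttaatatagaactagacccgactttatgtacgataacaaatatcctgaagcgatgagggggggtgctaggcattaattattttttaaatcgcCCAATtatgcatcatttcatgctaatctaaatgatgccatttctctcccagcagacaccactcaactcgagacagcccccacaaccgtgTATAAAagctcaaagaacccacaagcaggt
Krt72: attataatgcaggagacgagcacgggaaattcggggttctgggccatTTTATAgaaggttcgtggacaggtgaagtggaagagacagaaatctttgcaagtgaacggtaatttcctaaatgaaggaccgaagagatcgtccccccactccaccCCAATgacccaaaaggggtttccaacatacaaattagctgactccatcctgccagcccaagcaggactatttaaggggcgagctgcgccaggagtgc

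Mcm6 is part of the helicase that opens DNA for replication, Nusap1 binds spindle microtubules, and Cenpa is the histone of centromeres. They had the highest levels in wild type plucked skin among the cell division genes named for the size of their difference from wounds. Their windows are chr1:128359706-128359955 on the minus strand, chr2:119618048-119618297 on the plus strand and chr5:30666636-30666885 on the plus strand.
Mcm6: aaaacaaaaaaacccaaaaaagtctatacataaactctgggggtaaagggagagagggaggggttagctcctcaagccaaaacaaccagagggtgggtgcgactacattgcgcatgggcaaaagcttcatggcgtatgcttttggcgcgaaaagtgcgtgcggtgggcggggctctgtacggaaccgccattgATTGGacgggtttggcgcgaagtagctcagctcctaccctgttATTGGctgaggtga
Nusap1: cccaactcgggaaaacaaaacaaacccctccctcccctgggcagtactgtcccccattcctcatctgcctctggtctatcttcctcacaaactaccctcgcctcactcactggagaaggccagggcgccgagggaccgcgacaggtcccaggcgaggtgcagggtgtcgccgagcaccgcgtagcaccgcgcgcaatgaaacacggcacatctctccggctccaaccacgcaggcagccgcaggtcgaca
Cenpa: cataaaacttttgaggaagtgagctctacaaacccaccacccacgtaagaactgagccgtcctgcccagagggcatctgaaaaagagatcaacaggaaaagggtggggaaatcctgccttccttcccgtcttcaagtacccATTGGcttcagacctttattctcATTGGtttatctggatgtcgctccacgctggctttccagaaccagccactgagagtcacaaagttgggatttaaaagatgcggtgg

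TATAAA began 30 bases before the start in Krt25 and in Krt28, and TTTATA, its reverse complement, began 203 bases before the start in Krt72. Mcm6 held ATTGG, the reverse complement of CCAAT, 14 and 57 bases before the start, and Cenpa held it 86 and 109 bases before the start. None of the searched letters was in the Nusap1 window. TATAAA on either strand was in 19 of the 38 promoters found for the hair shaft and inner root sheath list, in 4.84% of the 62 found for the cell division list and in 12.4% of all 32851 RefSeq promoters. For CCAAT the shares of these 3 sets were 42.1%, 69.4% and 33.8%. For either form of TTTGAA or of its variant with C as the third base they were 34.2%, 33.9% and 17.1%. In lists looked up after the values were seen, TATAAA was in 81.2% of 48 promoters of keratin-associated protein genes, 34.4% of 64 of the cornified epidermis list and 14.0% of 57 of the skeletal muscle list. These shares describe letters and not bound sites.

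Because the 2 tables were normalised separately, the log2 ratio of plucked skin to wounds, with 1 FPKM added to both, was centred on its median over the compared genes. The subtracted median was 0.03 for the wild type columns and 0.08 for those of JunB cKO. All log2 values below are such centred ratios, and a positive value means higher in plucked skin. A gene was counted as different where its level differed at least 2-fold after centring. In wild type, 1004 genes were higher in plucked skin, 11.5% of the 8740, and 1325 were higher in wounds, 15.2%. Names of predicted genes, clones or small RNAs were held by 205 of the 1004 and 344 of the 1325, against 900 of the 8740. Without these and mitochondrial genes, 790 and 997 of 7840 genes were counted, 10.1% and 12.7%. The other 6411 were within 2-fold. The 11.5% and 15.2% are the background for the list counts below. Of the 8740, 982 reached 10 FPKM in plucked skin only and 1432 in wounds only. A gene kept through 1 column and low in the other is counted on the side of its higher column. Counts of compared genes, here and per list, are thus partly set by the rule. Centred on the ribosomal protein genes instead, the split was 706 higher in plucked skin and 1707 higher in wounds. At 4-fold the numbers were 255 and 681, so the wound side held the larger differences. The 25th and 75th percentiles of the log2 ratio were -0.56 and 0.49, and the 5th and 95th were -3.58 and 1.58.

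The JunB cKO columns repeated part of these differences. At least 2-fold in the same direction in both genotypes were 298 genes higher in plucked skin, 3.41% of the 8740, and 718 higher in wounds, 8.22%. Of the 1004 genes higher in wild type plucked skin, 640 had a log2 ratio above 0 in JunB cKO, and their median there was 0.43. Of the 1325 genes higher in wild type wounds, 1102 had a ratio below 0 in JunB cKO, and their median there was -1.22. Over all 8740 compared genes, 3991 lay above 0 and 4749 below 0 in JunB cKO, with a median of -0.08. Some genes lay past 2-fold the other way in JunB cKO, 131 of the 1004 and 75 of the 1325. Genes higher in wounds included 363 that were listed at 0 in plucked skin, and those higher in plucked skin included 36 listed at 0 in wounds.

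**Figure D1:**
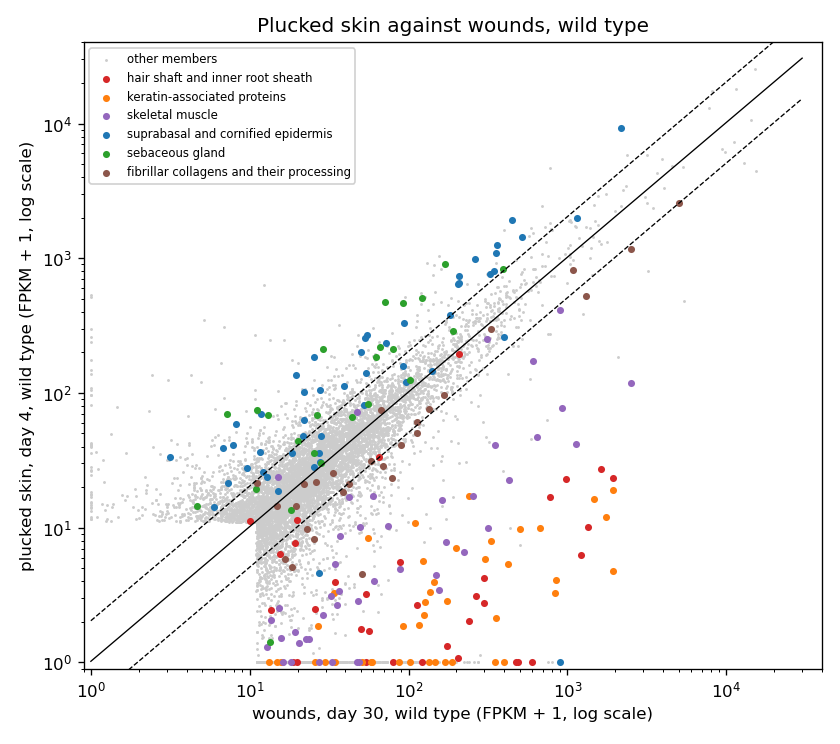
Level of each of the 8740 compared genes in wild type wounds (horizontal axis, FPKM + 1, log scale) and wild type plucked skin (vertical axis, FPKM + 1, log scale), with 6 gene lists in colour. The solid line is the median ratio and the dashed lines are 2-fold from it. Below the lower dashed line lie 31 of the 34 hair shaft genes, all 44 keratin-associated genes and 42 of the 45 muscle genes, and 35 of the 50 cornified epidermis genes lie above the upper one.

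The depth behind these values differed. In genes with a single transcript of about 1 kb, the low values fell on steps of 1 read, which was worth 0.0767 FPKM in wild type plucked skin and 0.0292 FPKM in the wild type wound column. A 1 kb transcript at 10 FPKM thus rested on about 130 reads in plucked skin and about 343 reads in wounds, with a counting error of 8.76% and 5.40%. A level under 3 reads of such a transcript, 0.230 FPKM in plucked skin and 0.0876 FPKM in wounds, could not be told from 0.

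Genes of the hair shaft and of its inner root sheath were lower in plucked skin almost without exception. Of 41 such genes found in both tables, 34 reached 10 FPKM in either condition, 31 of these were higher in wounds and none was higher in plucked skin. All 31 were also at least 2-fold higher in wounds in JunB cKO. Most of the 34 were kept through their wound level, so these counts are partly set by the rule. Over the 41 genes the median log2 ratio was -4.86 (wild type) and -2.84 (JunB cKO), where the median of the 8740 compared genes is 0 in wild type by construction. The size of such a ratio depends on the added constant, since 12 of the 41 were listed at 0 in wild type plucked skin. With 0.1 FPKM added the wild type median was -5.98, and with 5 FPKM added it was -3.29.

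Krt25, the inner root sheath keratin whose promoter is shown above, was at 5.28 FPKM in wild type plucked skin and 98.5 FPKM in JunB cKO plucked skin, and at 1217 and 977 FPKM in the wounds of the same genotypes. Krt71, its type II partner in the inner root sheath, was at 26.1 and 168 FPKM in plucked skin and at 1623 and 1197 FPKM in wounds. Both plucked values of each gene lay below both wound values. Krt33a, a keratin of the shaft cortex, was listed at 0 in wild type plucked skin and at 30.9 FPKM in JunB cKO plucked skin, and reached 594 and 365 FPKM in the wounds. Krt28 and Krt72 were also listed at 0 in wild type plucked skin and were at 486 and 473 FPKM in wild type wounds. Krt83 and Krt86, keratins of the shaft, were at 0.0723 and 0.314 FPKM in wild type plucked skin and at 203 and 175 FPKM in wild type wounds.

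Trichohyalin, Tchh, which hardens the inner root sheath, was at 22.3 and 241 FPKM in wild type and JunB cKO plucked skin and at 1945 and 882 FPKM in the wounds. Regulators of the hair matrix differed less. Msx2 was at 1.47 FPKM in wild type plucked skin and 24.7 FPKM in wild type wounds, Dlx3 at 6.72 and 18.3 FPKM, and Hoxc13, which switches on shaft keratin genes, at 5.34 and 14.5 FPKM. The 3 genes of the list within 2-fold were Krt84, Krt36 and Pinlyp. They were named after their values were seen. In JunB cKO the log2 ratios of Krt84 and Pinlyp were -3.35 and -1.76, and Krt36 was listed at 0 in plucked skin.

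Keratin-associated proteins, the sulphur-rich and glycine-rich matrix in which hair keratin is embedded, went the same way. Of 53 found, 44 reached 10 FPKM and all 44 were higher in wounds, 43 of them also in JunB cKO. Most of the 44 were kept through their wound level, so this count is partly set by the rule. Over the 53 the median log2 ratio was -5.51 (wild type) and -2.91 (JunB cKO), and with 5 FPKM added the wild type value was -4.21. Krtap7-1 was at 3.80 and 73.9 FPKM in wild type and JunB cKO plucked skin and at 1921 and 1136 FPKM in wounds. Krtap8-1 was at 3.08 and 55.5 FPKM in plucked skin and 840 and 511 FPKM in wounds. Krtap3-1, Krtap19-3 and Krtap14 were listed at 0 in wild type plucked skin and were at 399, 349.5 and 186 FPKM in wild type wounds. In wild type plucked skin 18 of the 44 were listed at 0, against 5 in JunB cKO plucked skin. Single members of this family are near-identical copies, and how reads were divided among them is uncertain. Krtap15 and Krtap14 lie in 1 overlapping locus.

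In plucked skin the hair genes stood at a higher level in JunB cKO than in wild type. Over the 34 genes of the shaft and inner root sheath list that reached 10 FPKM, wild type plucked skin had a median level of 1.93 FPKM and JunB cKO plucked skin one of 9.44 FPKM, while the wounds of these genotypes had 116 and 91.5 FPKM. For the 44 keratin-associated genes it was 1.20 and 11.4 FPKM in plucked skin and 134 and 91.8 FPKM in wounds. In both genotypes the plucked medians lay below the wound medians. Genes low in plucked skin were kept through their wild type wound level, so this order is partly set by the rule. The same limit applies to the counts above, and to counts and median levels over compared genes of other lists below.

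The hair genes also lie together on the chromosomes. On chromosome 11 (mm10 coordinates, 99315516 to 100261029), 19 keratin genes were compared, of which 12 were higher in wounds and 3 higher in plucked skin. Those 12 were all inner root sheath or shaft keratins, and the 3 were Krt14, Krt15 and Krt16. Krt10, the keratin of differentiating epidermis, lies among the inner root sheath genes, and had a log2 ratio of 0.79, next to Krt28, which was listed at 0 in wild type plucked skin. On chromosome 15 (101349571 to 101954287), 17 keratin genes were compared, 9 higher in wounds and 5 higher in plucked skin. The 5 were Krt1, Krt6a, Krt77, Krt78 and Krt79. Of the keratin-associated genes, all 18 compared on chromosome 11 and all 24 on chromosome 16 were higher in wounds.

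The cornified layer stood on the other side. Of 68 genes of suprabasal and cornified epidermis found, 50 reached 10 FPKM, 35 were higher in plucked skin and 2 were higher in wounds. Of the 35, 31 were also at least 2-fold higher in JunB cKO plucked skin. Over all 68 found the median log2 ratio was 1.17 (wild type) and 1.04 (JunB cKO). With 5 FPKM added in place of 1, or with centring on ribosomal protein genes, the wild type median was 0.94, just under 2-fold.

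Hrnr, hornerin, of the filaggrin family, was at 135 and 160.5 FPKM in wild type and JunB cKO plucked skin and at 18.5 and 18.1 FPKM in wounds. Flg, filaggrin, which bundles keratin and yields the moisturising factor of the cornified layer, was at 991 and 1487 FPKM in plucked skin and at 261 and 279 FPKM in wounds. Loricrin, Lor, the main protein of the cornified envelope, was at 139 and 203 FPKM in plucked skin and at 52.9 and 55.6 FPKM in wounds. Krtdap, a secreted protein of differentiating keratinocytes and the highest gene of the list, was at 9223 FPKM in wild type plucked skin and 2158 FPKM in wild type wounds. For each of Hrnr, Flg and Lor both plucked values lay above both wound values.

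The late cornified envelope genes, cross-linked into the envelope at its last stage, stood together. All 15 compared Lce genes were higher in wild type plucked skin, 13 of them also in JunB cKO, and over the 21 found the median log2 ratio was 1.90 and 1.54. Lce6a was at 182 and 119.5 FPKM in plucked skin and at 24.2 and 24.8 FPKM in wounds. Lce1h was at 32.3 and 27.2 FPKM in plucked skin and at 2.14 and 8.22 FPKM in wounds. Copies of Lce1 are alike in sequence, so the division of reads among them is uncertain. This family was counted by its symbols after the values were seen.

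Other genes of this list, picked after their values were seen, were within 2-fold in wild type. Involucrin, Ivl, an early envelope protein, had log2 ratios of 0.03 (wild type) and 1.36 (JunB cKO). The ratio of Tgm1, the transglutaminase of the envelope, was 0.11 and 0.65, that of Evpl, envoplakin, 0.37 and 0.83, and that of Krt10, a keratin of differentiating cells, 0.79 and 0.98. Ivl was thus past 2-fold in JunB cKO. Sprr4, a small proline-rich envelope protein, had ratios of 1.64 and 0.63. The 2 genes higher in wounds were Crnn, cornulin, and Cnfn, cornifelin. Crnn was listed at 0 in wild type plucked skin and at 35.7 FPKM in JunB cKO plucked skin, and was at 900 and 494 FPKM in wounds.

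Crnn belongs to the fused-type S100 genes, a row of neighbours on chromosome 3 that code for large proteins of cornifying cells. Crnn, Tchh and Tchhl1 were higher in wounds, whereas Flg, Flg2 and Hrnr, which lie between and beside them, were higher in plucked skin, and Rptn, repetin, was within 2-fold. Tchhl1 was at 15.9 and 60.5 FPKM in plucked skin and at 777 and 435 FPKM in wounds. Genes of the epidermal differentiation region of chromosome 3 and the S100 genes beside it (90511034 to 93564643) were picked by family symbol. Other genes in this span were not counted. Of the 39 picked genes that were compared, 21 were higher in plucked skin and 7 higher in wounds. Prr9, in the same region, sided with the hair genes, at 22.2 and 978 FPKM in wild type plucked skin and wounds. Tchh, Rptn and Hrnr are listed under 1 overlapping locus range, and how reads were divided between them is uncertain.

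**Figure D2:**
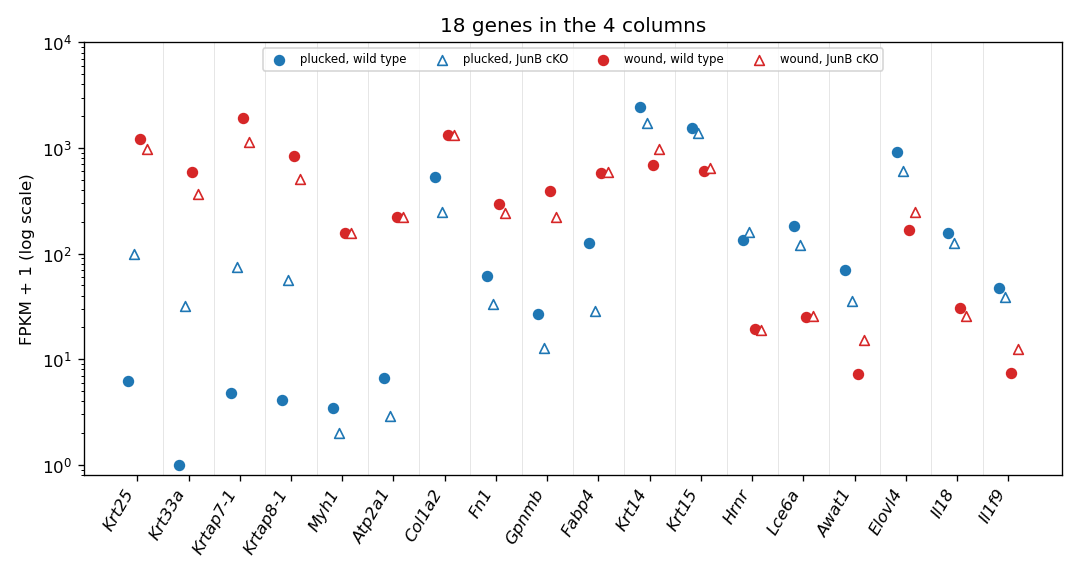
Level of 18 genes (vertical axis, FPKM + 1, log scale) in plucked skin (blue) and wounds (red) of wild type (filled circles) and JunB cKO mice (open triangles), 1 value per column with no error. In each of the 18 genes both plucked values lie on the same side of both wound values.

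Fewer genes of basal epidermis were past 2-fold in wild type. All 15 listed genes found reached 10 FPKM, 5 were higher in plucked skin and none in wounds, with a median log2 ratio of 0.52 (wild type) and 1.09 (JunB cKO). Krt14, the basal type I keratin, was at 2446 and 1709 FPKM in plucked skin and at 694 and 967 FPKM in wounds. Its partner Krt5 was at 614 and 845 FPKM in plucked skin and 362 and 357 FPKM in wounds. Col17a1, a collagen of the hemidesmosome, had a log2 ratio of 1.03 and 1.98, and Lamb3, a laminin chain of the basement membrane, 1.06 and 1.86. The integrins Itgb1 and Itga3 were within 2-fold in wild type, at -0.15 and 0.09.

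Among hair follicle stem cell genes, 5 of the 20 that reached 10 FPKM were higher in plucked skin and 1 was higher in wounds. Krt15, a keratin of the bulge and of basal epidermis, was at 1530 and 1382 FPKM in plucked skin and 603 and 647 FPKM in wounds. Lgr6, which marks cells above the bulge, was at 16.1 and 12.5 FPKM in plucked skin and 3.49 and 5.14 FPKM in wounds. Cd34, of bulge cells and also of dermal and vessel cells, went the other way, at 84.9 and 65.3 FPKM in plucked skin and 246 and 242 FPKM in wounds. Sox9 and Lgr5, further bulge genes, were within 2-fold in wild type, with log2 ratios of 0.57 and -0.77.

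Early anagen genes did not stand as a group on the plucked side. Of 19 that reached 10 FPKM, 2 were higher in plucked skin and 6 higher in wounds, and over 41 found the median was -0.61 (wild type) and -0.18 (JunB cKO). Lef1, a partner of beta-catenin in the hair matrix, was at 1.46 FPKM in wild type plucked skin and 12.6 FPKM in wild type wounds, and its log2 ratio in JunB cKO was -1.09. Sfrp2, a secreted Wnt modulator of dermal cells, was at 1.29 FPKM and listed at 0 in plucked skin, and was at 32.2 and 31.3 FPKM in wounds. Grem1, a BMP inhibitor, had log2 ratios of 1.06 and 1.31. Ptch1, a target and receptor of hedgehog signalling, had a log2 ratio of 0.58 and 0.88.

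Most cell division genes were within 2-fold in wild type. Of 67 found, 38 reached 10 FPKM, 4 were higher in plucked skin, 3 were higher in wounds and 31 were within 2-fold, beside 11.5% and 15.2% of all compared genes that were higher in plucked skin and in wounds. The median was -0.14 (wild type) and 0.58 (JunB cKO). Mki67, the Ki-67 antigen of cycling cells, was at 35.0 FPKM in wild type plucked skin and 46.0 FPKM in wild type wounds. In JunB cKO its levels were 61.0 and 35.4 FPKM. Top2a, a topoisomerase of dividing cells, was at 34.9 FPKM in wild type plucked skin and 55.9 FPKM in wild type wounds, against 57.7 and 36.2 FPKM in JunB cKO. Mcm6 was at 41.0 and 34.1 FPKM in plucked skin and at 11.5 and 12.8 FPKM in wounds, and Nusap1 at 40.1 and 26.1 FPKM and at 14.0 and 11.3 FPKM. Of the 4 genes higher in plucked skin, Mcm6, Nusap1 and Ttk were so in both genotypes. The replication-dependent histones had a median of -0.51 (wild type) and -0.24 (JunB cKO).

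Sebaceous gland genes were higher in wild type plucked skin, and here JunB cKO differed. Of 30 found, 24 reached 10 FPKM, 15 were higher in plucked skin and 1 was higher in wounds, but only 3 of the 15 were also past 2-fold in JunB cKO. Over all 30 the median was 1.09 (wild type) and 0.018 (JunB cKO). Awat1, which makes wax esters of sebum, was at 69.0 and 34.4 FPKM in plucked skin and 6.19 and 14.2 FPKM in wounds. Elovl4, which lengthens fatty acids, was at 908 and 598 FPKM in plucked skin and 168 and 246 FPKM in wounds. Far2, which makes the fatty alcohols for wax esters, was at 210 and 97.6 FPKM in plucked skin and 27.9 and 56.9 FPKM in wounds. The size of each of these differences was smaller in JunB cKO, with log2 ratios of 1.15, 1.20 and 0.69 against 3.26, 2.40 and 2.85 in wild type. Fabp5, a fatty acid carrier, was at 461 FPKM in wild type plucked skin and between 75.9 and 91.6 FPKM in the other 3 columns. Fads2, a fatty acid desaturase, was the 1 gene of the list higher in wounds, at 0.422 and 2.43 FPKM in plucked skin and 12.5 and 13.2 FPKM in wounds.

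**Figure D3:**
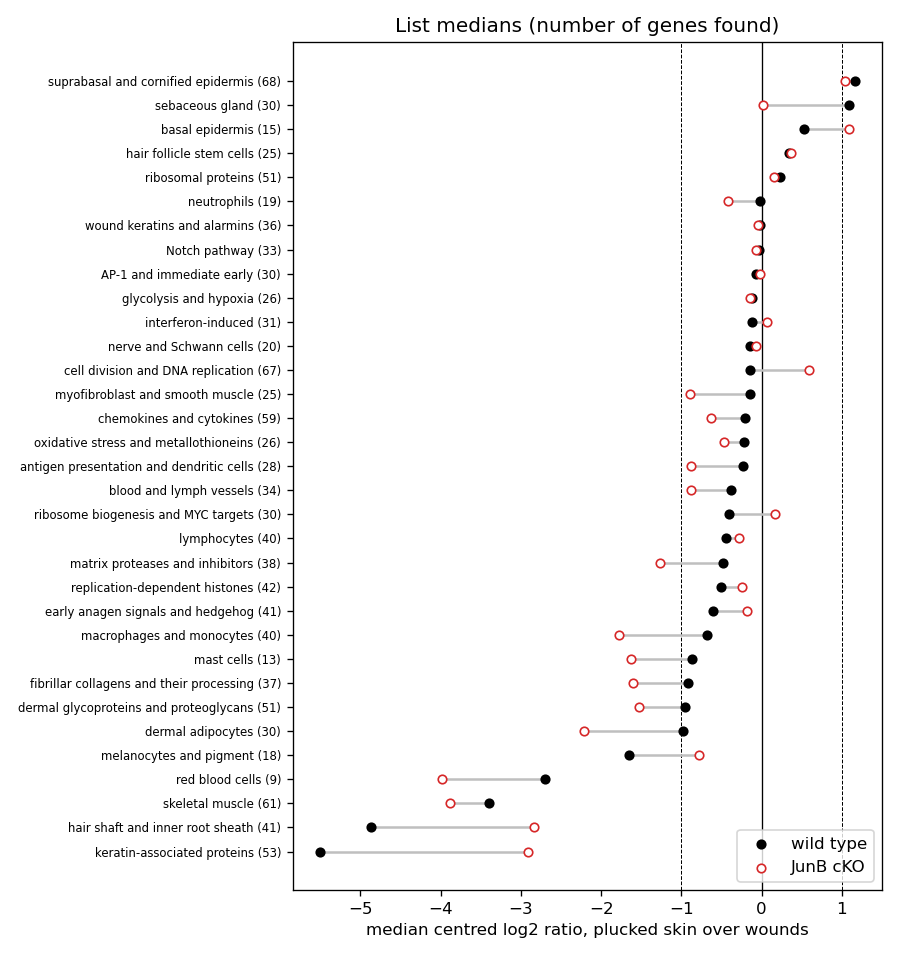
Median centred log2 ratio of plucked skin over wounds (horizontal axis) for 33 gene lists, ordered by wild type (filled) with JunB cKO (open) beside it and the number of genes found in brackets. The dashed lines mark 2-fold. Keratin-associated, hair shaft, muscle and red blood cell lists lie furthest to the wound side in both genotypes, and cornified epidermis lies beyond 2-fold on the plucked side in both.

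Skeletal muscle genes were higher in wounds with few exceptions. Of 61 found, 45 reached 10 FPKM, 42 were higher in wounds in both genotypes and none was higher in plucked skin. Their median over the 61 was -3.40 (wild type) and -3.89 (JunB cKO). In wild type this was short of the hair shaft median and in JunB cKO beyond it. Mylpf, a light chain of fast muscle myosin, was at 118 and 11.3 FPKM in plucked skin and 2499 and 2835 FPKM in wounds. Ttn, the giant spring protein titin, was at 8.88 and 6.80 FPKM in plucked skin and 314 and 280 FPKM in wounds. Atp2a1, the calcium pump of the fast fibre reticulum, was at 5.57 and 1.88 FPKM in plucked skin and 222 and 219 FPKM in wounds. Mb, myoglobin, was at 3.44 FPKM and listed at 0 in plucked skin, and was at 148 and 185 FPKM in wounds. In these 4 genes the plucked value was lower in JunB cKO. Tcap, a titin-binding protein, and Pgam2, a muscle enzyme of glycolysis, were instead listed at 0 in wild type plucked skin and were at 1.66 and 1.70 FPKM in JunB cKO plucked skin. In wild type wounds these 2 were at 47.8 and 46.2 FPKM. Over the 45 genes the median level was 3.96 and 1.36 FPKM in plucked skin and 47.3 and 50.2 FPKM in wounds. These genes were kept for their level in either wild type column, most of them through wounds. This order of medians and the count of genes higher in wounds are thus partly set by the rule. The 3 genes within 2-fold were Tpm3, Nebl and Fbxo32, which are not limited to muscle fibres. How much of the muscle sheet each biopsy held was not measured, and its part in the muscle gene differences was not tested.

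Muscle genes outside the list, named after their values were seen, went the same way. Cox7a1, Cox8b and Cox6a2, muscle forms of cytochrome oxidase subunits, were listed at 0 in both plucked columns and were at 46.7, 37.3 and 19.9 FPKM in wild type wounds. Red blood cell genes did so as well. Of 9 found, 5 reached 10 FPKM and all 5 were higher in wild type wounds, 4 of them in both genotypes. These 5 were kept through their wound level, so the count is partly set by the rule. The wild type median log2 ratio was -2.70 over the 9, but -1.13 over the 6 with the same locus in both tables. With loci of status OK only, it was -1.15 over 2 genes. Hba-a1, a globin chain, was listed at 0 in wild type plucked skin and at 49.5 FPKM in wild type wounds. The copies of Hba-a1 and Hba-a2 are alike, so their shares are uncertain.

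Dermal matrix genes past 2-fold were all higher in wounds in the 3 matrix lists described here. Of 37 genes of fibrillar collagens and their processing, 27 reached 10 FPKM, 14 were higher in wounds, 12 of them in both genotypes, and none was higher in plucked skin. Over the 37 the median was -0.92 (wild type) and -1.60 (JunB cKO). Col1a2 was at 525 and 245 FPKM in plucked skin and 1314 and 1333 FPKM in wounds, and Col3a1, which is rich in young scar, at 2559 and 535 FPKM and at 5055 and 7735 FPKM. Lox, which cross-links collagen, was at 22.3 and 5.34 FPKM in plucked skin and 77.3 and 73.3 FPKM in wounds. Col14a1, a collagen on fibril surfaces, stood furthest apart, at 3.51 and 6.02 FPKM in plucked skin and 49.6 and 53.5 FPKM in wounds.

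Dermal glycoproteins and proteoglycans showed the same picture, with 20 of 38 higher in wounds and none higher in plucked skin, and medians of -0.95 and -1.53. Fn1, fibronectin, was at 59.9 and 32.3 FPKM in plucked skin and 295 and 241 FPKM in wounds. Mfap5, of elastic microfibrils, was at 9.93 and 5.75 FPKM in plucked skin and 98.5 and 95.2 FPKM in wounds. Of the matrix proteases and their inhibitors, 7 of 21 were higher in wounds and none in plucked skin. Among myofibroblast genes, 7 of 18 were higher in wounds and 2 in plucked skin. Over the 25 found the median log2 ratio was -0.14 (wild type) and -0.89 (JunB cKO). In wild type 11 of the 25 lay above 0 and 14 below 0, so this list had no clear common direction there. Fap, of activated fibroblasts, was at 2.28 and 14.0 FPKM in plucked skin and 33.8 and 31.2 FPKM in wounds. Lrrc15, of the same cells, was at 12.0 and 8.61 FPKM in plucked skin and 75.1 and 65.1 FPKM in wounds.

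In JunB cKO plucked skin the dermal genes stood lower than in wild type plucked skin. Across the 27 collagen genes wild type plucked skin had a median level of 24.3 FPKM and JunB cKO plucked skin one of 17.2 FPKM, while the wounds had 57.0 and 62.4 FPKM. For the 38 glycoprotein genes it was 25.6 and 13.5 FPKM in plucked skin and 56.6 and 55.6 FPKM in wounds. The depth of the dermis in each biopsy was not measured, and its part in these differences was not tested.

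As shares of the summed FPKM over all shared symbols other than predicted genes, clones and small RNAs, the lists divided the 2 kinds of skin as follows. The cornified epidermis list made up 4.90% in wild type plucked skin and 1.80% in wild type wounds, and 6.06% and 1.79% in JunB cKO. The hair shaft list made up 0.0747% and 2.35% in wild type, the keratin-associated list 0.0284% and 2.93%, and the skeletal muscle list 0.273% and 2.01%. The collagen list made up 1.17% and 2.26%. Because shares sum to a whole, a list with a large share lowers the others.

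**Figure D4:**
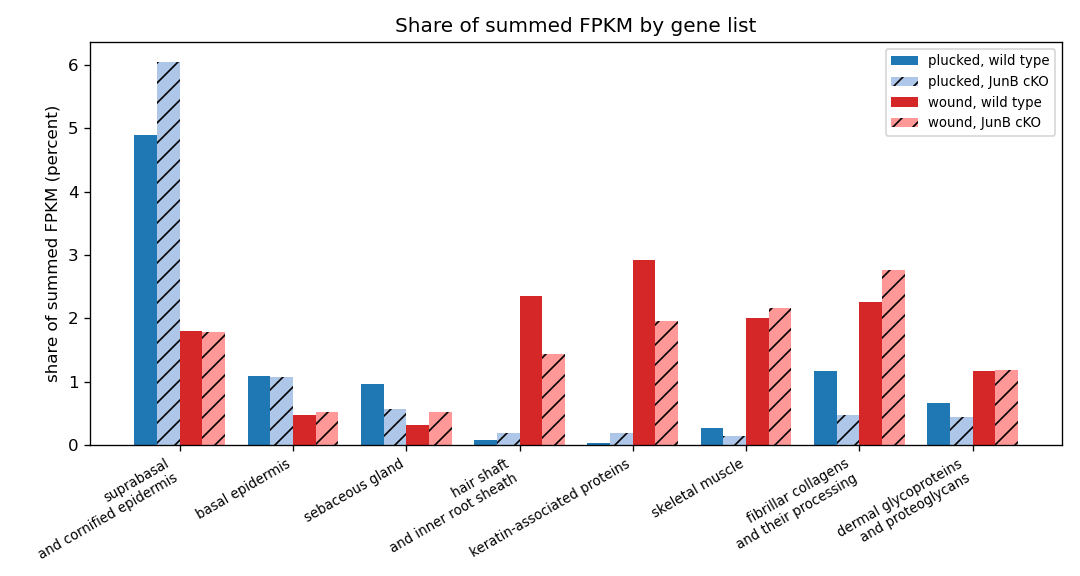
Share of the summed FPKM (vertical axis, percent) held by 8 gene lists in plucked skin (blue) and wounds (red) of wild type (plain bars) and JunB cKO mice (hatched bars), 1 value per bar with no error. Both plucked bars are above both wound bars in the cornified, basal and sebaceous lists, and below them in the other 5.

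Immune genes split by kind. Of 40 macrophage and monocyte genes, 30 reached 10 FPKM, of which 14 were higher in wounds, 13 of them in both genotypes, and 2 higher in plucked skin. Over the 40 the median was -0.68 (wild type) and -1.78 (JunB cKO). Gpnmb, of lipid-laden and tissue macrophages and of pigment cells, was at 25.6 and 11.7 FPKM in plucked skin and 390 and 219 FPKM in wounds. Folr2, of resident macrophages, was at 11.3 and 8.07 FPKM in plucked skin and 48.6 and 38.6 FPKM in wounds. Csf1r, the receptor for the main macrophage growth factor, was within 2-fold in wild type, with log2 ratios of -0.44 and -1.51. The 2 genes higher in wild type plucked skin, Cd68 and Fcgr1, had ratios of 1.02 and 1.58, and -1.71 and -1.22 in JunB cKO. The macrophage chemokines Ccl8, Ccl9 and Ccl6 were higher in wounds, with Ccl8 at 1.38 and 10.5 FPKM in plucked skin and 62.8 and 57.4 FPKM in wounds.

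Of the 15 chemokine and cytokine genes that reached 10 FPKM, 4 were higher in plucked skin and 7 higher in wounds. Among 7 compared genes of the interleukin 1 family, counted by their symbols after the values were seen, 5 were higher in plucked skin in both genotypes and 1 was higher in wild type wounds. The 1 was Il1f10, listed at 0 in wild type plucked skin and at 14.0 FPKM in wild type wounds, and at 8.99 and 10.1 FPKM in JunB cKO. Il33 had log2 ratios of 0.29 and -1.35. Il18 was at 156 and 125 FPKM in plucked skin and 29.9 and 24.9 FPKM in wounds. Il1f9, a form of interleukin 36 made by keratinocytes, was at 46.5 and 38.2 FPKM in plucked skin and 6.40 and 11.6 FPKM in wounds, and Il1f8, a related form, at 40.0 and 19.0 FPKM and at 4.96 and 7.39 FPKM. Ccl20, which attracts lymphocytes and dendritic cells to epithelium, was at 12.3 and 9.44 FPKM in plucked skin and 2.03 and 3.39 FPKM in wounds.

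The list of wound keratins and alarmins had no common direction. Of 20 that reached 10 FPKM, 10 were higher in plucked skin and 7 higher in wounds. Krt6a and Krt16, keratins of stressed epidermis and of the follicle, had log2 ratios of 1.12 and 1.28 in wild type and -0.73 and 0.65 in JunB cKO. Gjb2 and Gjb6, the connexins of hyperproliferative epidermis and of the follicle, were higher in wounds, with Gjb2 at 29.6 and 25.4 FPKM in plucked skin and 230 and 154 FPKM in wounds. S100a8, a subunit of calprotectin, was listed at 0 in wild type plucked skin and was at 36.7 FPKM in wild type wounds, but at 152 and 139 FPKM in JunB cKO.

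Skint genes were counted by their symbols after their values were seen. Of 11 Skint genes found, relatives of Skint1, by which keratinocytes select the gamma delta T cells of the epidermis, 10 reached 10 FPKM and 8 were higher in plucked skin in both genotypes, with a median log2 ratio of 1.54 and 1.63. Skint10 was at 75.5 and 88.1 FPKM in plucked skin and 18.1 and 13.4 FPKM in wounds. Of 17 gamma and delta receptor genes found, 1 reached 10 FPKM. It was Tcrg-V5, a variable segment of the gamma chain, at 10.2 and 5.63 FPKM in plucked skin, and in wounds at 0.239 FPKM and listed at 0. Cd3g, a signalling chain found in T cells of every kind, was at 39.6 and 20.6 FPKM in plucked skin and 8.31 and 10.7 FPKM in wounds, and was within 2-fold in JunB cKO, with a log2 ratio of 0.80. Trbc2, a constant segment of the beta receptor chain, had ratios of 1.45 and -0.79. Igkc, an antibody light chain made by B lineage cells, was listed at 0 in both plucked columns and was at 38.6 and 143 FPKM in wounds.

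Pigment cell genes followed the hair genes in wild type. Of 18 found, 12 reached 10 FPKM, 10 were higher in wounds, 6 of them in both genotypes, and none was higher in plucked skin. Mlana was listed at 0 in wild type plucked skin and at 2.58 FPKM in JunB cKO plucked skin, and was at 42.6 and 30.5 FPKM in wounds. Ednrb, the endothelin receptor of pigment cells and vessels, was at 1.72 and 1.46 FPKM in plucked skin and 38.9 and 31.9 FPKM in wounds.

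Fat cell genes of the dermis were divided. Of 24 that reached 10 FPKM, 10 were higher in wounds, all 10 in both genotypes, and 4 were higher in wild type plucked skin, none of them in JunB cKO. Adipoq, adiponectin, was at 8.76 and 17.4 FPKM in plucked skin and 58.4 and 116 FPKM in wounds. Fabp4, the fatty acid carrier of fat cells, was at 125 and 27.4 FPKM in plucked skin and 581 and 597 FPKM in wounds. The 4 on the plucked side were Acly, Dgat1, Me1 and Adig, of which the first 3 make fatty acids and fat in sebaceous cells as well.

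The remaining lists are given by the genes that reached 10 FPKM, because medians over all genes found also take in genes listed at 0. Of all compared genes, 11.5% were higher in plucked skin and 15.2% higher in wounds. Counts near these shares are not a result about a list. Of 17 Notch pathway genes, 1 was higher in plucked skin and none in wounds. Of 18 AP-1 and immediate early genes, 1 was higher in plucked skin and 3 in wounds, and of 22 genes of glycolysis and hypoxia, 4 and 2. Of 17 interferon-induced genes, 4 were higher in plucked skin and 2 in wounds, and of 17 antigen presentation genes, 1 and 2. Of 22 genes of oxidative stress and metallothioneins, 1 was higher in plucked skin and 4 in wounds, and of 28 ribosome biogenesis genes, none and 2. The lists of single cell types had few compared genes. Of 4 neutrophil genes 3 were higher in wild type wounds, none of them in both genotypes, and of 3 mast cell genes 2 were higher in wounds in both. Of 8 vessel genes, 2 were higher in plucked skin and 2 in wounds, of 7 lymphocyte genes, 2 and 1, and of 6 nerve and Schwann cell genes, none in either. Over all genes found, those listed at 0 included, several lists lay further to the wound side in JunB cKO than in wild type. Among them, medians were -1.63 against -0.87 for mast cells, -1.27 against -0.48 for matrix proteases and -0.89 against -0.14 for myofibroblasts. Vessels were at -0.88 against -0.38 and antigen presentation at -0.88 against -0.23. Other lists lay further to the plucked side in JunB cKO. Among them were hair shaft (-2.84 against -4.86), keratin-associated (-2.91 against -5.51), melanocytes (-0.78 against -1.66) and cell division (0.58 against -0.14).

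Of the 51 ribosomal protein genes, 50 were within 2-fold and the median was 0.23, the exception being Rpl4 at 4686 and 5465 FPKM in plucked skin and 775 and 710 FPKM in wounds. Notch1 was at 83.4 and 90.6 FPKM in plucked skin and 41.7 and 47.2 FPKM in wounds, with log2 ratios of 0.96 and 0.85.

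**Figure D5:**
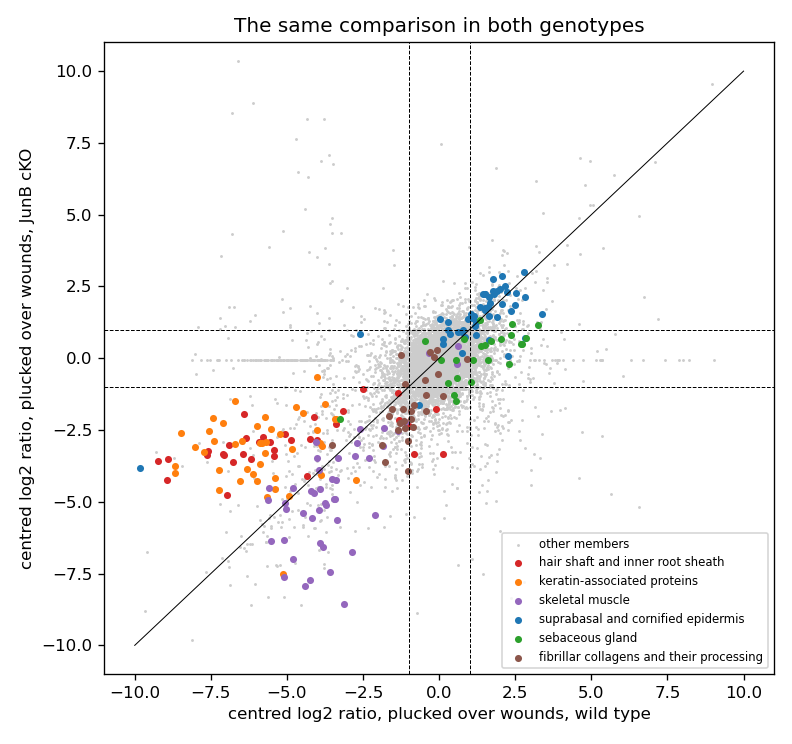
Centred log2 ratio of plucked skin over wounds in wild type (horizontal axis) and in JunB cKO (vertical axis) for the 8740 compared genes, with 6 lists in colour, dashed lines at 2-fold and a solid line of equality. Hair shaft and keratin-associated genes lie in the lower left mostly above the line of equality and muscle genes mostly below it, and 15 of the 24 sebaceous genes lie to the right of the 2-fold line, 12 of them short of it in JunB cKO.

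Among genes with established symbols past 2-fold in both genotypes, the 15 with the largest wild type ratios on the wound side were Crnn, hair keratin and keratin-associated genes, and Gprc5d, a receptor of the hair cortex, listed at 0 in wild type plucked skin and at 234 FPKM in wild type wounds. This order did not hold in JunB cKO, where the log2 ratio of Crnn was -3.83 and that of the muscle gene Atp2a1 was -6.33. The 15 on the plucked side were more mixed. Aadac, a lipid esterase, was at 120 and 44.6 FPKM in plucked skin and 3.90 and 17.9 FPKM in wounds. Klk8, a protease of shedding epidermis, was at 72.9 and 54.7 FPKM in plucked skin and 8.53 and 22.6 FPKM in wounds. Stfa3, a cysteine protease inhibitor of a family of close copies, was at 175 and 258 FPKM in plucked skin and 17.6 and 102 FPKM in wounds. Kif14, a kinesin of cell division, was at 40.5 and 24.9 FPKM in plucked skin and 2.49 and 2.88 FPKM in wounds. Pctp, a carrier of phosphatidylcholine, and Ahrr, which represses the aryl hydrocarbon receptor, had log2 ratios of 3.32 and 2.89. Sox6os, Fabp6, Lce1h, Lce6a, Awat1 and Tcrg-V5 were also among the 15 highest.

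Tango6, Rps19bp1 and Tssk4 were among the 15 highest too, but their locus in the plucked table has other coordinates than in the wound table, so that different stretches may have been measured. The same holds for other genes named here, among them Acly, Ccne2, Col1a2, Dusp6, Fabp5, Far2, Flg and Flg2. It also holds for Grem1, Hba-a1, Hist1h1d, Ifi35, Il18, Itgb1, Mb, Me1 and Ttk. The same coordinates in both tables were found for 7387 of the 8740 genes. Over these alone, 850 genes were higher in plucked skin and 1157 in wounds.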

How the data were processed

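FPKM values were deposited by the authors in 1 gene table per experiment, made with Cufflinks and Cuffdiff on the mouse build mm10 per the labels, with 1 FPKM column per genotype. The libraries were made from RNA depleted of ribosomal RNA with a stranded kit and sequenced as single reads. The aligner settings and the filters that bear on these levels were not examined further. The authors' own comparison columns (fold changes, test statistics, p-values) were not used. The members, gene lists and alternatives were chosen with earlier results of these data known.

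Symbols listed alone at a locus were kept, with the locus of the largest summed FPKM, and the plucked table (47990 loci) was joined to the wound table (46726 loci) by symbol. Genes with at least 10 FPKM in either wild type column were compared by log2((plucked + 1)/(wound + 1)) minus its median. The pseudocount makes ratios of low genes understate their difference. Genes within a list were named by size: up to 6 per list with the largest ratio, those past 2-fold the same way in JunB cKO first, with defining genes that did not differ, plus the 15 highest and 15 lowest overall. Further genes of the lists were named after their values were seen. Mitochondrially encoded genes were left out, since only 2 of 28 were listed under a single symbol in both tables. Gene names follow the tables, loci are written from base 1, and gene types come from GENCODE. Calculations used Python 3.11.15, pandas 2.3.3, numpy 2.4.6 and matplotlib 3.10.9, and were tested on simulated data. The alternatives tried were other pseudocounts, scalings, filters and limits, and the JunB cKO columns.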

Additional observations from a re-analysis of the deposited data

Results flagged for a closer look

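Among the genes named by the rule, 6 lay past 2-fold in opposite directions in the 2 genotypes with 1 FPKM added, each with 1 value per column, and the difference between genotypes was not tested. Aplnr, the apelin receptor of vessels, had a centred log2 ratio of plucked skin over wounds of 1.78 (wild type) and -1.85 (JunB cKO). Vegfc, a growth factor for lymph vessels, had 2.07 in wild type, and was listed at 0 in JunB cKO plucked skin. Gpx2, a glutathione peroxidase, had 1.64 in wild type, and was also listed at 0 in JunB cKO plucked skin. Ccne2, a cyclin of the step into DNA replication, had -1.83 and 1.68. S100a9, a subunit of calprotectin, had -1.77 and 1.60. Srxn1, which repairs oxidised peroxiredoxins, had -1.79 and 1.06.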

How the results depend on the processing

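The counts of genes higher in plucked skin and in wounds, 1004 and 1325, moved most with the limit and the filter: 1888 and 2119 at 1.5-fold, 255 and 681 at 4-fold, and 2220 and 3315 of 17075 genes with at least 1 FPKM in either. With a filter on the geometric mean of both columns, 701 and 753 of 7734 genes passed. Centred on ribosomal protein genes the counts were 706 and 1707, a split further to the wound side, and without centring 1052 and 1287. Rank-based quantile normalization gave 1053 and 1249. Of 33 list medians, 22 kept their side of 2-fold under every alternative run. Of these, 12 also kept their direction, among them hair shaft, keratin-associated and muscle genes, and 10 changed sign within 2-fold in at least 1 alternative. For instance, cell division was at 0.58 and ribosome biogenesis at 0.16 in the JunB cKO columns, and wound keratins and alarmins at 0.73 with loci of status OK only. With a pseudocount of 0.1 the medians of dermal adipocytes (-1.03), fibrillar collagens (-1.01), dermal glycoproteins (-1.08), lymphocytes (-1.33) and mast cells (-1.32) passed 2-fold, and with 5 cornified epidermis fell short (0.94). Centred on ribosomal protein genes, cornified epidermis (0.94) and sebaceous gland (0.86) fell short, and dermal adipocytes (-1.21), collagens (-1.15), glycoproteins (-1.18) and mast cells (-1.09) passed. The adipocyte median was -1.02 with the geometric mean filter and -1.04 with loci of status OK only, where that of glycoproteins was -1.02. With the same locus in both tables, an alternative chosen after seeing the data, adipocytes were at -1.24 and collagens at -1.02.

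In the JunB cKO columns the medians of melanocytes (-0.78) and sebaceous gland (0.018) fell short of 2-fold, and those of basal epidermis (1.09), dermal adipocytes (-2.21), collagens (-1.60), glycoproteins (-1.53), matrix proteases (-1.27), macrophages (-1.78) and mast cells (-1.63) passed it. There 21 named genes changed direction, of which 14 were past 2-fold in at least 1 genotype: Ccne2 (1.68), Hist1h1d (0.66), S100a8 (0.059), S100a9 (1.60), Trbc2 (-0.79), Cd86 (-0.49), Ifi35 (-0.10), Vegfc (-1.10), Aplnr (-1.85), Nrarp (-0.24), Srxn1 (1.06), Gpx2 (-3.44), Ncl (-1.05) and Gar1 (1.79). Vegfc and Gpx2 are listed at 0 in JunB cKO plucked skin, so their sizes depend on the added constant. Of 204 named genes, 169 kept their side of 2-fold in every wild type alternative in which they were evaluated. Named genes were not run with the filters of at least 1 FPKM or of the geometric mean. Some were missing where status OK or the same locus was required. The causes were not tested. No paired analysis was possible because each condition and genotype has 1 column, and for the same reason no replicate could be left out. Counting error limits low levels in plucked skin more than in wounds.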

Other observations

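Some further genes outside the lists, named after their values were seen, were also higher in plucked skin in both genotypes. Calm4, a calmodulin-like protein of differentiating epidermis, was at 883 and 801 FPKM in wild type and JunB cKO plucked skin and at 144 and 181 FPKM in wounds. Hal, which makes urocanic acid from histidine in the cornified layer, was at 187 and 188 FPKM in plucked skin and 31.5 and 47.0 FPKM in wounds. Defb6, a defensin, was at 1630.1 and 1616 FPKM in plucked skin and 399 and 622 FPKM in wounds. Btc, betacellulin, a ligand of the epidermal growth factor receptor, was at 42.1 and 38.6 FPKM in plucked skin and 12.1 and 8.54 FPKM in wounds. Dusp6, a phosphatase that damps ERK signalling, was at 124 and 104 FPKM in plucked skin and 24.4 and 30.5 FPKM in wounds.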
